A study of Mus musculus with 2 samples.

Results

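Messenger RNA decay factors were examined in regulatory T (Treg) cells sorted from injured mouse muscle, with 1 library after IL-33 and 1 after PBS. The set holds 10 of the 23337 genes in the deposited table, taken as the rows whose symbol is Zfp36, Zfp36l1, Zfp36l2, Zc3h12a, Zc3h12d, Rc3h1, Rc3h2, Elavl1, Btg1 or Btg2, and all 10 were found. The 10 genes were chosen by their place in the pathway with earlier IL-33 to PBS values of these same libraries known, so their differences are given as a description. The cells came from 8-week-old male mice on a C57BL/6 background that carry the Foxp3-IRES-GFP reporter, in which green fluorescent protein is made together with Foxp3. In both groups the tibialis anterior, quadriceps and gastrocnemius muscles were injured with cardiotoxin, a venom component that destroys myofibres. One group received 0.3 ug of recombinant IL-33 in the muscle and the other received PBS, and muscles were taken 4 days after injury. For each library 5000 Treg cells were sorted in 2 rounds. How many mice were pooled is not given in the sources used here. With 1 library per group there is no replicate, so no test was possible and every difference below is between these 2 libraries.

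The stability of a cytokine transcript is set largely by its 3′ untranslated region (UTR), the stretch after the stop codon. Proteins of the ZFP36 family bind AU-rich elements there and bring in the CCR4-NOT complex, which removes the poly(A) tail. Roquins bind short stem-loops and also recruit CCR4-NOT, while regnases cut such transcripts directly. ELAVL1 (HuR) binds AU-rich and U-rich stretches and stabilizes transcripts, and BTG1 and BTG2 connect the deadenylase subunits CNOT7 and CNOT8 to their targets. In T cells these factors restrain cytokine and costimulatory transcripts and help keep resting cells quiescent. In mice, loss of regnase function or a mutation of a roquin gene can lead to autoimmunity.

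Several of these factors act on transcripts of their own family, so the 3′ UTR sites of the members are shown first. The heptamer TATTTAT, the core of a strong AU-rich element, was searched on the transcript strand of 1 annotated transcript per gene (GENCODE M21 on GRCm38, the assembly of mm10, which all positions here refer to). Each match also contains the shorter motif ATTTA. Each of the 3 ZFP36 family genes held 3 matches, and capitals mark the heptamer in the following lines.
Zfp36, chr7:28376966-28376994, minus strand: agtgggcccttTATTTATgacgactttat
Zfp36, chr7:28376951-28376979, minus strand: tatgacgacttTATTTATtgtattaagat
Zfp36, chr7:28376926-28376954, minus strand: agattttatagTATTTATatatattgggt
Zfp36l1, chr12:80108422-80108450, minus strand: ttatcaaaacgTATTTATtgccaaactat
Zfp36l1, chr12:80108381-80108409, minus strand: aattttgttcaTATTTATcgggatgacaa
Zfp36l1, chr12:80108167-80108195, minus strand: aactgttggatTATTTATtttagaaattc
Zfp36l2, chr17:84184914-84184942, minus strand: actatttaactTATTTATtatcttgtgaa
Zfp36l2, chr17:84184866-84184894, minus strand: tgtccatactgTATTTATcgagtatgatg
Zfp36l2, chr17:84184680-84184708, minus strand: attgtatgtaaTATTTATttcattaattt

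The 3 Zfp36 matches lay in a 3′ UTR of 774 bases. Levels are given as CPM, read counts scaled to the library total. Of 449 genes above 5 CPM in a library whose 3′ UTR was within 10% of that length, 18.3% held at least 1 match. The 3′ UTR of Zfp36l1 was 1835 bases long, and 38.2% of 544 genes of like length held the heptamer. That of Zfp36l2 was 1822 bases long, and 37.5% of 552 genes did. Elavl1 held 8 matches, Rc3h2 held 3, Rc3h1 held 2 and Btg2 held 1. Among genes of like 3′ UTR length, 59.7%, 64.6%, 77.0% and 42.6% held at least 1. Overlapping matches were each counted, and the 8 in Elavl1 lay close together, beginning at 3′ UTR positions 3795 to 3841. Zc3h12a, Zc3h12d and Btg1 held 0, where 18.6%, 42.6% and 60.9% of genes with a 3′ UTR of like length held at least 1. A match is a description of the letters in the annotated 3′ UTR and not a measured binding site.

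The roquin genes themselves hold the letters of the best known roquin element, the stem-loop of the Tnf 3′ UTR. Capitals mark TTCTGTGAA, whose outer bases pair around a loop of 3 bases.
Tnf, chr17:35199578-35199606, minus strand: cagacatgttTTCTGTGAAaacggagctg
Rc3h1, chr1:160968032-160968060, plus strand: tttgtttttgTTCTGTGAAtgaactttat
Rc3h1, chr1:160971653-160971681, plus strand: agccaataacTTCTGTGAAgttgcctttt
Rc3h2, chr2:37373802-37373830, minus strand: tttaattaacTTCTGTGAAgttgtttact
None of the other 8 members held these 9 letters. Among genes of like 3′ UTR length, 16.2% of 74 held them for Rc3h1, whose 3′ UTR has 7181 bases, and 6.25% of 192 for Rc3h2, whose 3′ UTR has 5160 bases. With any 3 bases in the loop (TTCNNNGAA, which takes in TTCTGTGAA), Rc3h1 held 7 matches and Rc3h2 held 3, where the median gene of like length held 3 and 2.

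The close kinship of the ZFP36 proteins bears on how 25-base reads are assigned. Zfp36l1 and Zfp36l2 shared a run of 32 coding bases, the longest between any 2 members of a family, shown here because reads inside it could come from either gene.
Zfp36l1 (chr12:80110109-80110140) and Zfp36l2 (chr17:84186588-84186619), both minus strand: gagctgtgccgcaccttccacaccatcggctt
This run accounts for the 8 words of 25 bases that the transcripts have in common, out of 2966 in Zfp36l1 and 3506 in Zfp36l2. In the transcripts used and on the same strand, Zfp36 had no 25-base word in common with either paralogue. Over all annotated transcripts and both strands, 31 words of Zfp36, 7 of Zc3h12d and 2 of Zc3h12a also occurred in other members. Of all 25-base words, counted on both strands, 64.4% of those in Zfp36l1 also occurred in transcripts of other genes, most of them (1626 words) in Gm26669, an annotated noncoding RNA on the opposite strand that has no row in the table. For the other 9 members the share was between 0.0182% and 5.93%. Elavl1 overlaps the start of Ccl25 on the opposite strand, whose row held 14 counts with IL-33 and 2 with PBS. Since no strand setting is given for the counting, reads of these members and of genes on the opposite strand cannot be told apart.

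The IL-33 library held 4080791 counts and the PBS library 1573707, so a single count is worth 0.245 CPM and 0.635 CPM. Treg and T cell markers summed to 13471 and 13450 CPM over 11 genes, with a median log2 fold of 0.18. At 2-fold 1 gene was higher and 0 lower, against 15.5% and 16.3% over all genes above 5 CPM in a library. Foxp3, which defines these cells and is higher at 2-fold, had 40 counts with IL-33 and 1 with PBS, so its transcript hardly registered in the latter. Foxp3 exceeded 5 CPM with IL-33 only. Log2 folds were above 0 for 7 of the 11 genes and below 0 for 4. Il2ra had a ratio of 0.721 and Ikzf2 one of 0.873, while Cd3d had one of 1.26 and Cd3e one of 1.56 (0.936 to 2.74). Ctla4 alone held 6186 CPM with IL-33 and 6246 CPM with PBS of the sums. Myeloid markers summed to 46.1 CPM and 138 CPM over 15 genes. Of these, 7 were listed at 0 with IL-33 and 5 with PBS, and Cd68, Cd74, S100a8 and S100a9 were at 0 in both. H2-Aa of the same list had 18 counts with IL-33 and 97 with PBS, so the 0 values do not show that such cells were absent. Fibroblast, endothelial and muscle markers summed to 49.5 CPM and 119 CPM over 14 genes, with 11 and 8 at 0, among them Col1a1, Myod1 and Ckm in both. B cell markers summed to 32.3 and 26.7 CPM, with Pax5 at 0 in both, and CD8 T and NK markers to 24.8 and 16.5 CPM, with Cd8a and Ncr1 at 0 in both. Scaling with trimmed mean of M-values (TMM) factors in place of library totals adds 0.12 to log2 differences and moves the median over all genes above 5 CPM from -0.08 to 0.05, so differences this small have no settled direction.

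ZFP36 family transcripts were less abundant with IL-33, and Zfp36l2 accounted for most of that difference. The gene for Regnase-1, Zc3h12a, was also lower but thinly counted. Scaled to library totals, the other regnase, both roquins, Elavl1 and Btg2 were closely similar or differed by no more than counting error. After TMM scaling the ratios of Zc3h12d, Elavl1 and Btg2 were 1.41, 1.14 and 1.11. Counting intervals were not computed under that scaling, so the likeness of these genes is stated for library totals only. Log2 folds were taken on CPM plus 1, which understates differences of low genes, and a gene was counted as higher or lower at 2-fold. All 10 members exceeded 5 CPM in both libraries. At 2-fold, 2 members (Zfp36l2 and Zc3h12a) were lower, against 16.3% of the 9005 genes above 5 CPM in a library, and 0 were higher, against 15.5%. At 1.5-fold the members' counts were again 2 and 0, against 27.4% lower and 23.5% higher among those genes. Most 2-fold differences in these libraries lay among low genes. Among the 3566 genes averaging at least 50 CPM, 4.96% were lower and 3.53% higher, against 1 and 0 of the 9 members at that level. Among the 990 genes averaging at least 200 CPM, 1.01% were lower and 1.21% higher, against 1 (Zfp36l2) and 0 of the 6 members there. The median log2 fold of the members was -0.23, beside -0.08 over all genes above 5 CPM. Since the members were chosen with this comparison known, nothing is read from these counts. In a bulk library, fewer cells of a type and less RNA per cell cannot be told apart.

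**Figure D1:**
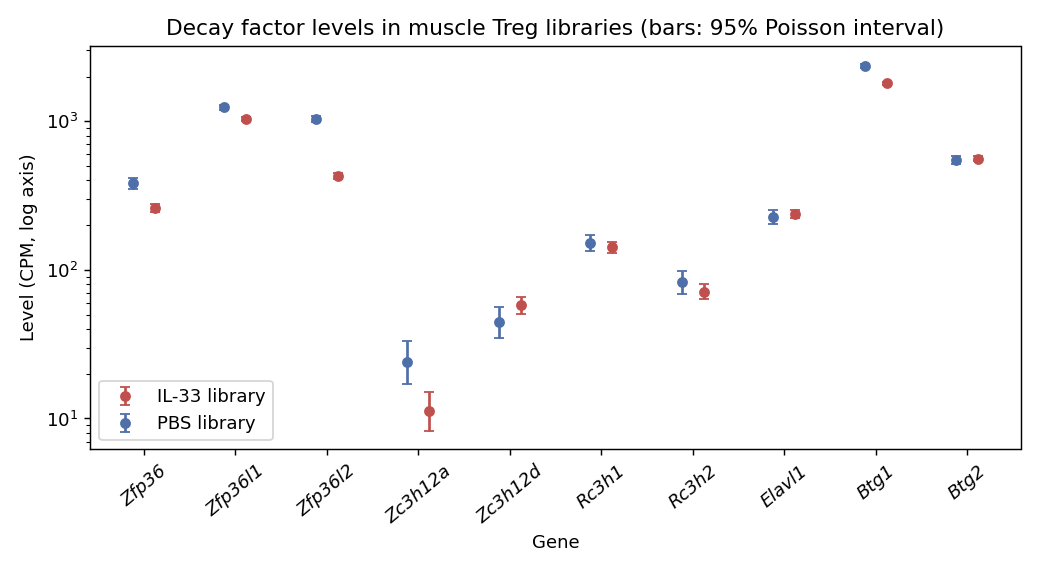
Level of each of the 10 genes in CPM (log axis) with IL-33 (red) and with PBS (blue), with the 95% Poisson interval of the count, which covers counting error only. Zfp36l2 stands at 429 and 1033 CPM, the widest separation among the well-counted genes, while Btg2, Elavl1 and Rc3h1 overlap.

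**Figure D2:**
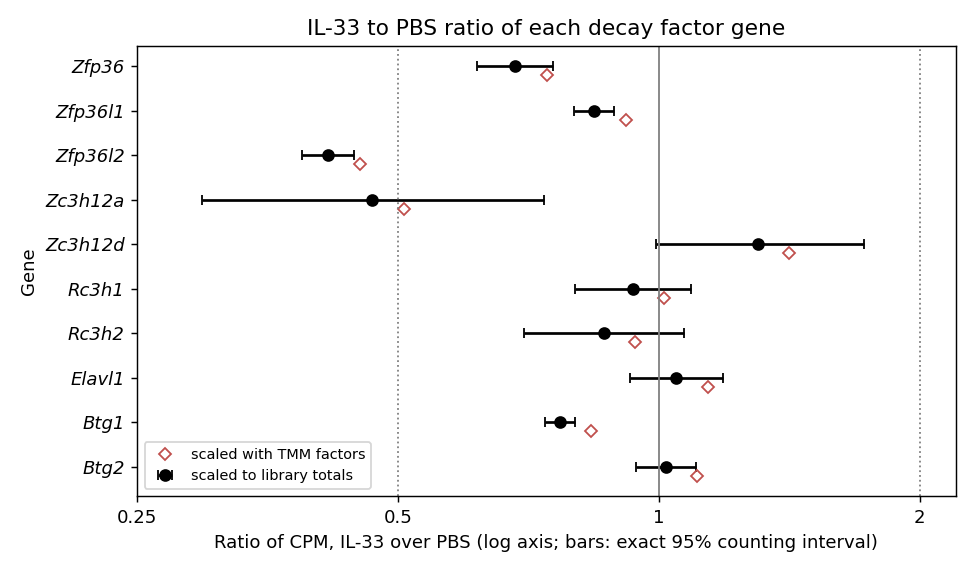
Ratio of CPM, IL-33 over PBS, for each gene (log axis), with the exact 95% counting interval. Dotted lines mark 2-fold and open diamonds show the ratio after TMM scaling, under which Zfp36l2 stays below 0.5 at 0.451 and Zc3h12a moves to 0.508.

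Zfp36l2 encodes an AU-rich element binding protein known for its part in lymphocyte development and quiescence. It had 1749 counts with IL-33 and 1625 with PBS, which is 429 CPM and 1033 CPM. The ratio was 0.415 (95% counting interval 0.388 to 0.444), a log2 fold of -1.27. It was the third lowest of the 990 genes averaging at least 200 CPM, after Rpl35a at -1.52 and Myst3 at -1.30 (both named after their values were seen). The gene lies at chr17:84183931-84187947 on the minus strand and overlaps the noncoding AC132455.1 on the other strand, which has no row in the table.

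Zfp36 encodes tristetraprolin, the founding member, whose loss in mice causes a TNF-driven inflammatory syndrome. It had 1065 and 602 counts, 261 CPM with IL-33 and 383 CPM with PBS. The ratio was 0.682 (0.617 to 0.755), within 2-fold, and the gene lies at chr7:28376784-28380253. Zfp36l1, the most abundant family member, had 4261 and 1952 counts, 1044 CPM and 1240 CPM. Its ratio was 0.842 (0.798 to 0.889), and 0.915 after TMM scaling (chr12:80107754-80113013). All 3 genes were thus lower with IL-33 beyond counting error under scaling to library totals, in the order Zfp36l2, Zfp36, Zfp36l1.

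**Figure D3:**
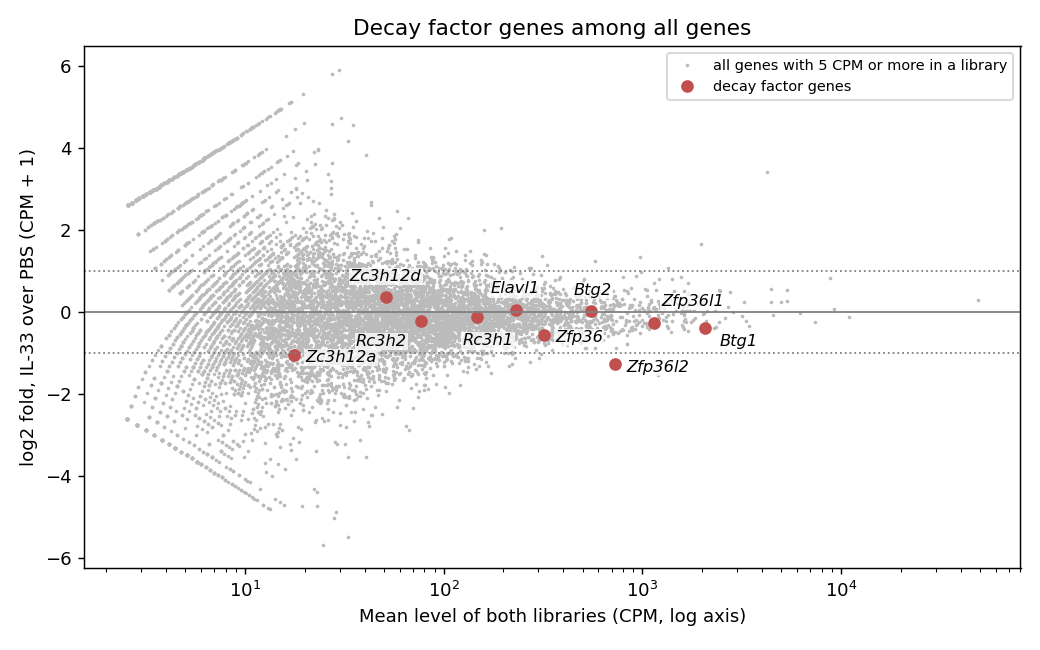
Log2 fold of IL-33 over PBS (CPM plus 1) against the mean level of both libraries (CPM, log axis) for the 9005 genes with 5 CPM or more in a library (grey) and the 10 decay factor genes (red); dotted lines mark 2-fold. Zfp36l2 at -1.27 lies at the lower edge of genes of its level, whereas Zc3h12a at -1.03 lies among many low genes with differences of that size.

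Ratios between paralogues within a library need no scaling between libraries. Zfp36l2 held 24.7% of the family's 7075 counts with IL-33 (95% Wilson limits 23.7 and 25.7) and 38.9% of 4179 with PBS (37.4 to 40.4). Zfp36l1 held 60.2% (59.1 to 61.4) and 46.7% (45.2 to 48.2). The share of Zfp36 was 15.1% (14.2 to 15.9) with IL-33 and 14.4% (13.4 to 15.5) with PBS, so its intervals overlapped. There were 2.44 Zfp36l1 counts per Zfp36l2 count with IL-33 and 1.20 with PBS, and these differed 2.03-fold (counting interval 1.86 to 2.21). The summed family level was 1734 CPM against 2656 CPM (ratio 0.653, 0.628 to 0.678), or 0.710 after TMM scaling.

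**Figure D4:**
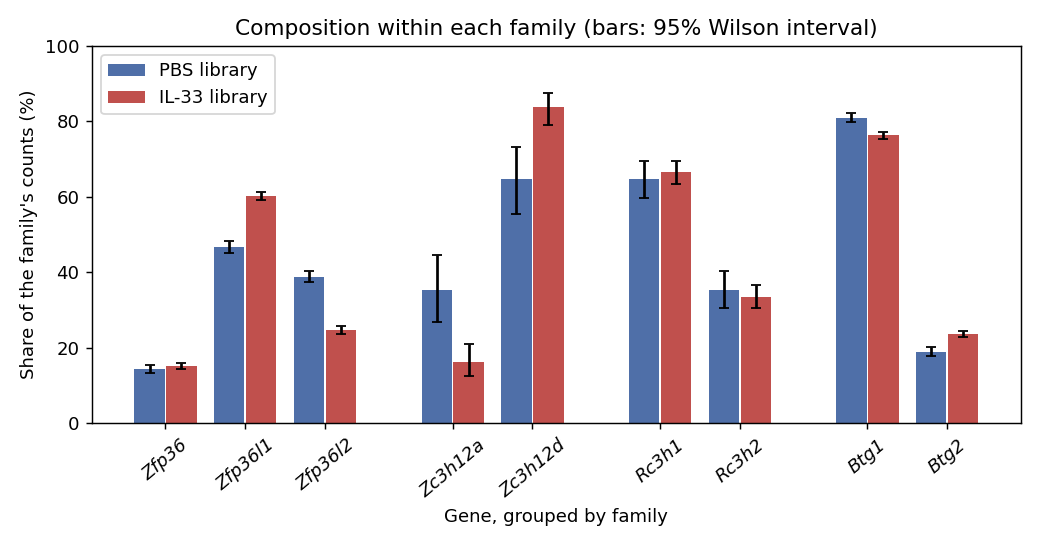
Share of each family's counts (percent, axis from 0) held by each of its genes with PBS (blue) and with IL-33 (red), with 95% Wilson intervals. Zfp36l2 drops from 38.9% to 24.7% of ZFP36 family counts while Zfp36l1 goes from 46.7% to 60.2%, and the roquin shares overlap.

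Zc3h12a encodes Regnase-1, an endonuclease that cuts stem-loop containing transcripts of cytokines and T cell activation genes. It was the lowest member in both libraries, with 46 counts (11.3 CPM) with IL-33 and 38 counts (24.1 CPM) with PBS. The ratio was 0.467 (0.297 to 0.737), a log2 fold of -1.03. This is at the 2-fold line: the log2 fold was -0.92 after TMM scaling and -0.84 with a pseudocount of 5 CPM, both within 2-fold. Zc3h12d, a second regnase of lymphocytes, had 236 and 70 counts, 57.8 CPM and 44.5 CPM. Scaled to library totals, its ratio of 1.30 had an interval from 0.992 to 1.72 that held 1. After TMM scaling its ratio was 1.41. Zc3h12a made up 16.3% of the 282 regnase counts with IL-33 (12.5 to 21.1) and 35.2% of 108 with PBS (26.8 to 44.6). The ratio of Zc3h12a to Zc3h12d counts with IL-33 was 0.359 times that with PBS (0.210 to 0.617). The regnases summed to 69.1 CPM and 68.6 CPM. Zc3h12a lies at chr4:125118423-125127840 and Zc3h12d at chr10:7832470-7870396. The other relatives Zc3h12b and Zc3h12c were listed at 0 in both libraries, and N4bp1, which encodes a related RNase of T cells, stood at 366 and 492 CPM (ratio 0.743, 0.681 to 0.812).

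The roquin genes did not differ beyond counting error. Rc3h1, which encodes Roquin-1, the protein mutated in the sanroque strain of autoimmune mice, had 578 and 239 counts, 142 CPM with IL-33 and 152 CPM with PBS. Its ratio was 0.933 (0.801 to 1.09), and its log2 fold changed sign with TMM scaling, from -0.10 to 0.02. Rc3h2, which encodes the partly redundant Roquin-2, had 291 and 130 counts, 71.3 CPM and 82.6 CPM (ratio 0.863, 0.700 to 1.07). Rc3h1 held 66.5% of roquin counts with IL-33 (63.3 to 69.6) and 64.8% with PBS (59.8 to 69.5). The intervals leave room for a summed roquin ratio between 0.803 and 1.03. Rc3h1 lies at chr1:160906418-160974978 and Rc3h2 at chr2:37370069-37422903.

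Elavl1, the gene for the stabilizing protein HuR, had 969 and 357 counts, 237 CPM with IL-33 and 227 CPM with PBS (chr8:4285382-4325413). Its ratio was 1.05 (0.926 to 1.19), and 1.14 after TMM scaling. Against the destabilizing ZFP36 genes the balance of counts differed: Elavl1 had 0.554 counts per Zfp36l2 count with IL-33 and 0.220 with PBS, a 2.52-fold difference (2.19 to 2.91). The corresponding difference was 1.53-fold (1.31 to 1.80) against Zfp36 and 1.24-fold (1.09 to 1.42) against Zfp36l1. The neuronal paralogues Elavl2, Elavl3 and Elavl4 were listed at 0 in both libraries.

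Btg1 and Btg2, which promote deadenylation and are known as quiescence genes of T cells, split. Btg1 had the highest level of the set, with 7356 and 3692 counts, 1803 CPM with IL-33 and 2346 CPM with PBS. Its ratio was 0.768 (0.738 to 0.800), and 0.836 after TMM scaling (chr10:96617006-96622809). Btg2, also an early response gene and p53 target, had 2284 and 865 counts, 560 CPM and 550 CPM, a ratio of 1.02 (0.941 to 1.10; chr1:134075170-134079120). After TMM scaling the Btg2 ratio was 1.11. There were 3.22 Btg1 counts per Btg2 count with IL-33 and 4.27 with PBS, a ratio of 0.755 (0.690 to 0.824). Of the related antiproliferative Tob genes, Tob1 was at 52.0 and 31.8 CPM (ratio 1.64, 1.20 to 2.27), and Tob2 at 255 and 297 CPM (ratio 0.859, 0.769 to 0.960). Btg3 and Btg4 were listed at 0 in both libraries.

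Levels of different genes were compared per kilobase of the annotated transcript, as CPM per kb. With IL-33 the order was Btg1 (360 CPM per kb), Zfp36l1 (349), Btg2 (204), Zfp36l2 (121), Zfp36 (93.5), Elavl1 (41.3), Zc3h12d (14.1), Rc3h1 (12.9), Rc3h2 (8.10) and Zc3h12a (4.09). The counting intervals of Btg1 and Zfp36l1 overlapped, as did those of Zc3h12d and Rc3h1. With PBS, Zfp36l2 ranked 3 at 293 CPM per kb, above Btg2 at 200.4. The other places at the top were Btg1 at 469 and Zfp36l1 at 415, and Zfp36 followed Btg2 at 137. At the bottom of that library the intervals of neighbours overlapped from Rc3h1 at 13.8 through Zc3h12d at 10.9 and Rc3h2 at 9.39 to Zc3h12a at 8.76 CPM per kb. Across both libraries the ZFP36 and BTG genes were more abundant than the regnases and roquins, with Elavl1 between.

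The machinery that these factors recruit is given next, list by list. Over all genes above 5 CPM in a library, 15.5% were higher and 16.3% lower at 2-fold. The counts of each list are given beside these shares, and nothing is read from them. Of 16 genes of CCR4-NOT and other deadenylation, 15 exceeded 5 CPM in a library, 1 was higher at 2-fold and 2 were lower, with a median log2 fold of -0.12. Cnot7, a deadenylase subunit that BTG proteins contact, had 17 counts against 36, 4.17 CPM against 22.9 CPM (ratio 0.182, 0.0959 to 0.333). Cnot7 thus exceeded 5 CPM with PBS only. Cnot8, its paralogue, named after its values were seen, was at 58.8 and 64.2 CPM. Pan2, the nuclease of a second deadenylase, was lower at 0.322 (0.226 to 0.459). Cnot9, listed under its older symbol Rqcd1, had 83 counts against 11 and was higher at 2.91 (1.55 to 6.05). The more abundant Cnot4, a ubiquitin ligase, stood at 177 and 299 CPM, and Pabpc1, the main poly(A) binding protein, at 1522 and 1785 CPM.

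Decapping and 5′-to-3′ decay genes had a median log2 fold of 0.36 over 15 of 16 genes. At 2-fold 4 were higher and 1 lower, against 15.5% and 16.3% over all genes above 5 CPM. Dcp2, the decapping enzyme, had 193 counts against 16, a ratio of 4.65 (2.79 to 8.30). Lsm3, at 2.36 (1.84 to 3.06), and Lsm4, at 2.24 (1.54 to 3.35), encode parts of the ring that binds deadenylated tails. Lsm5 was at 251 and 141 CPM. Edc4, a scaffold of the decapping complex, was lower at 0.398 (0.317 to 0.501), and Ddx6, the helicase that links CCR4-NOT to decapping, stood at 528 and 605 CPM. Exosome and 3′-to-5′ decay genes had a median of 0.23 over 14 of 16 genes, with 3 higher and 2 lower against the same shares. For Exosc10, a nuclear exosome nuclease, 71 counts against 0 gave an exact 95% lower limit of 7.23 for the ratio (9.13 against the 3 counts that a 0 allows), Dis3l had a ratio of 3.79 (2.33 to 6.55), and Dis3l2, with 22 counts against 0, had a lower limit of 2.11 (2.83 against 3 counts). Exosc4 had 12 counts against 50, a ratio of 0.0926 (0.0449 to 0.176), while the abundant Exosc8 stood at 204.1 and 203 CPM and Exosc7 at 95.8 and 75.0 CPM. Exosc10 and Dis3l2 exceeded 5 CPM with IL-33 only and Exosc4 with PBS only, so the floor itself favours large differences among them.

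Regnase-1 works together with the helicase UPF1 of nonsense-mediated decay. That list had a median of -0.35 over 9 of 10 genes. At 2-fold 2 were higher and 0 lower, against 15.5% and 16.3% over all genes above 5 CPM. Smg1, the kinase that phosphorylates UPF1, reached 258 CPM with IL-33 and 121 CPM with PBS (ratio 2.14, 1.83 to 2.51), and Upf3a had 67 counts against 12, a ratio of 2.15 (1.16 to 4.37). Smg6, at 0.565, stood below 1 but within 2-fold, and Upf2 was at 185 and 236 CPM. Other 3′ UTR binding proteins had a median of 0.03 over 14 genes, with 2 higher and 0 lower against the same shares. Arid5a, which encodes a protein known to protect transcripts from Regnase-1, had 135 counts against 14, 33.1 CPM with IL-33 and 8.90 CPM with PBS, a ratio of 3.72 (2.14 to 6.98). Khsrp, which encodes the decay-promoting protein KSRP, had 42 counts against 6, a ratio of 2.70 (1.14 to 7.77). The translational silencers Tia1, at 0.570 (0.479 to 0.681), and Tial1, at 0.556 (0.484 to 0.639), were the lowest of the list, and the abundant Pcbp2 and Ybx1 stood at 0.984 and 0.770.

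Genes that act on the decay factors are given in the same way, and nothing is read from their counts. Of 14, all above 5 CPM in a library, 12 were below 0, where the median over all genes above 5 CPM was itself -0.08. At 2-fold 1 was lower and 0 were higher, against 16.3% and 15.5% over those genes. The list's median log2 fold was -0.29 and came no closer to 0 than -0.17 under the alternatives tried. That value belongs to TMM scaling, under which the median over all genes above 5 CPM was 0.05. Malt1, the protease that cleaves Regnase-1 and roquins after antigen receptor signalling, stood at 307 and 350 CPM (ratio 0.876, 0.792 to 0.970), and its partner Bcl10 had a ratio of 0.744 (0.649 to 0.853; both were named after their values were seen). Mapk14, the p38 kinase upstream of tristetraprolin phosphorylation, had a ratio of 0.595 (0.499 to 0.710), and the innate signalling kinase gene Tbk1 one of 0.599. Ikbkb, the kinase that marks Regnase-1 for degradation, was the gene past 2-fold, at 0.427 (0.347 to 0.526). Dusp1, which turns p38 off, stood at 348 and 408 CPM, and Ywhaz, a 14-3-3 protein gene, at 1617 and 1632 CPM.

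Known targets of the decay factors are given as a description, and whether they follow the decay factor levels was not tested. Of 25 listed transcripts, 16 exceeded 5 CPM in a library. At 2-fold 2 were higher and 2 lower, against 15.5% and 16.3% over all genes above 5 CPM. Of the 16, 13 were below 0 and the median log2 fold was -0.24, beside -0.08 over all those genes. Icos, a costimulatory receptor gene and the classic roquin target, was at 1990 and 2031 CPM (ratio 0.980, 0.940 to 1.02). Ctla4 was at 6186 and 6246 CPM. Rel, a Regnase-1 target that encodes an NF-kB subunit, was lower at 0.431 (0.358 to 0.519), and Ccl3, with 13 counts in each library, at 0.386 (0.165 to 0.903). Tnf, the textbook AU-rich transcript, had 135 and 59 counts, 33.1 and 37.5 CPM. Its ratio was 0.882 (0.645 to 1.22), and it was named after its values were seen. The annotated 3′ UTR of Tnf held 8 heptamer matches, some of them overlapping. Myc was higher at 2.34 (1.59 to 3.54), and Il17a, with 90 counts against 0, had an exact 95% lower limit of 9.22 (11.6 against 3 counts). Il17a exceeded 5 CPM with IL-33 only and Ccl3 with PBS only. Il2, Il6, Csf2, Il23a, Ptgs2 and Il12b were at 0 in both libraries, which allows up to 0.735 CPM with IL-33 and 1.91 CPM with PBS.

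**Figure D5:**
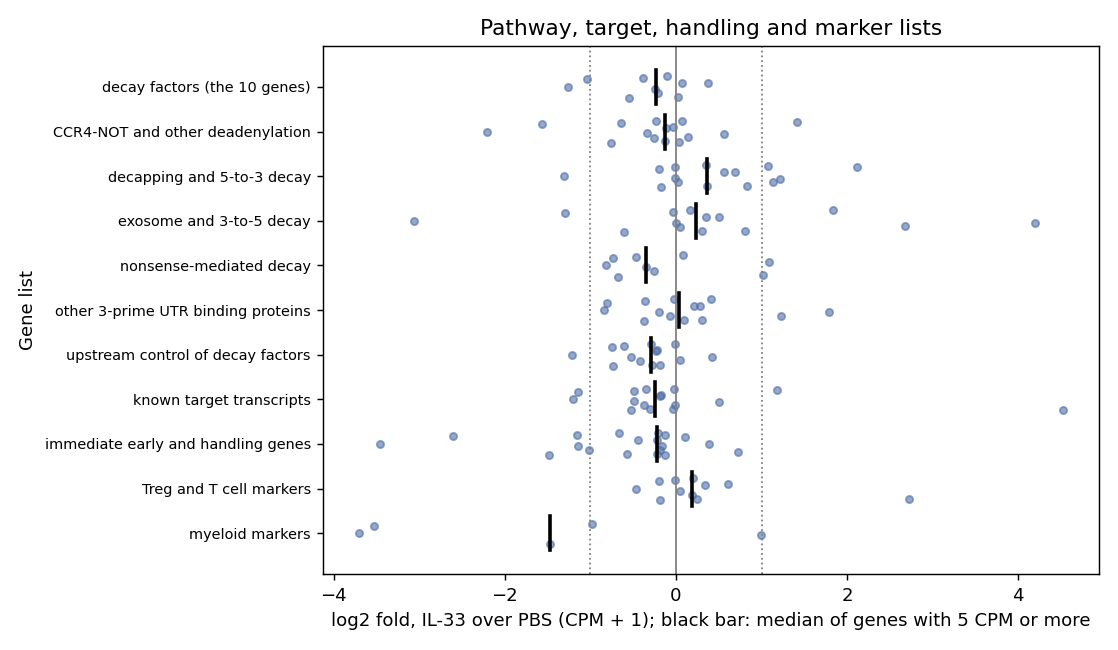
Log2 fold of IL-33 over PBS (CPM plus 1) for each gene above 5 CPM in a library (points) and the median (black bar) of each list with at least 5 such genes; dotted lines mark 2-fold. The decay factors have a median of -0.23, upstream genes one of -0.29, decapping genes one of 0.36, and myeloid markers one of -1.47. The 3 myeloid markers lower at 2-fold exceeded 5 CPM with PBS only.

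Some members are early response genes that also follow cell handling. Of 20 immediate early and handling genes, 19 exceeded 5 CPM in a library, of which 13 lay within 2-fold, 6 were lower and 0 higher, against 16.3% lower and 15.5% higher over all such genes. Their median log2 fold was -0.23, beside -0.08 over all genes, and -0.10 after TMM scaling, beside 0.05. Jun stood at 16.4 and 47.7 CPM (ratio 0.345, 0.244 to 0.485), and Ier2 at 48.3 and 109 CPM (ratio 0.444, 0.360 to 0.549). The heat shock genes Hspa1a (0 counts against 8, a ratio of at most 0.226 by the exact 95% limit) and Hspa1b (1 against 20, a ratio of 0.0193, interval 0.000465 to 0.121) were the farthest from 0; they are near-identical copies, so their counts may have been split. Hspa1a and Hspa1b exceeded 5 CPM with PBS only. The abundant Nfkbia and Hsp90aa1 had ratios of 0.891 and 0.858. Myeloid cells also express ZFP36 family genes. Of the 5 myeloid markers above 5 CPM in a library 3 were lower and 0 higher at 2-fold. Those 3 (H2-Aa, Itgax and Tyrobp) exceeded 5 CPM with PBS only, so the floor itself favours lower values among them. The median log2 fold was -1.47, or -0.71 without the 5 CPM floor. H2-Aa stood at 4.41 CPM with IL-33 and 61.6 CPM with PBS, Itgax had 0 counts against 19, Tyrobp had 18 against 22, Lyz2 had 78 against 61 and Itgam had 66 against 12. Col3a1, a fibroblast marker, had 0 counts against 78. The part of handling and of other cells in the ZFP36 family and Zc3h12a differences was not tested.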

How the data were processed

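The authors deposited 1 table of raw counts per gene symbol, whole numbers for both libraries. Per the labels' protocols, poly(A) RNA from 5000 sorted cells was converted to cDNA, amplified, fragmented with a transposon and sequenced as paired 25-base reads. No molecular identifiers are named, so all intervals and floors cover counting error only. Per the submitters' processing notes, TopHat2 2.0.10, Cufflinks 2.2.1 and mm10 were used; for the counting program, annotation and strand setting the sources used here give nothing. 0 columns were left unused.

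CPM is the count over the library total. Ratios carry exact conditional (Clopper-Pearson) 95% intervals, levels Poisson intervals and shares Wilson intervals. For a gene with 0 counts in a library, the exact limit is given, with or without the ratio against 3 counts in that library, which takes the other count as exact. The IL-33 library is 2.59 times deeper. Beside the members, 14 gene lists were fixed (207 entries with the members, 205 matched, 5 of them by an older symbol); the members and lists were chosen with earlier results of these data known. Besides the members, the rule named the 4 genes farthest from 0 and the 2 most abundant of each list; the other genes named, among them the markers and targets given at 0, were named after their values were seen. Some genes that the rule names are not reported here. Positions, transcripts and 3′ UTRs came from GENCODE M21 (GRCm38, the assembly of mm10), using the principal transcript. The computation was tested on simulated data. Python 3.11.15, numpy 2.4.6, pandas 2.3.3, scipy 1.17.1, matplotlib 3.10.9, R 4.3.3 and edgeR 4.0.16 (TMM factors alone) were used.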

Additional observations from a re-analysis of the deposited data

How the results depend on the processing

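Alternatives were TMM scaling, totals without the 20 most abundant genes, pseudocounts of 0.5 and 5 CPM, floors of 20 CPM and none, and a threshold of 1.5-fold. The count of members at least 2-fold lower went from 2 to 1 with TMM scaling and with a pseudocount of 5 CPM, since Zc3h12a then lay within 2-fold; the count of higher members was 0 throughout. TMM scaling moved the log2 fold outside the main counting interval for Zfp36l2 (-1.15), Btg1 (-0.26), Zfp36l1 (-0.13) and Btg2 (0.15). It moved the median of other 3′ UTR binding proteins to 0.16 and that of Treg and T cell markers to 0.31, which was 0.045 at a floor of 20 CPM. Of 144 values under alternatives, these 9 moved beyond the limits set and 0 reversed a 2-fold difference. The limits are wide for lists of thinly counted genes, which moved further without passing them: the myeloid median (-1.47) was -0.71 without a floor, -1.01 with a pseudocount of 5 CPM and -2.26 at a floor of 20 CPM, and the fibroblast, endothelial and muscle median (-3.11) ranged from -3.79 to -1.54. That last list had 4 genes above 5 CPM in a library. The 3 lower at 2-fold (Col3a1, Dcn and Cdh5) exceeded 5 CPM with PBS only, so the floor itself favours lower values among them. Pecam1, the remaining gene, stood at 48.5 CPM with IL-33 and 45.1 CPM with PBS. For a gene the limit is its counting interval, for a list that of its middle gene, and for a count 1.5 times. The members' median ranged from -0.23 to -0.11. Signs changed for Rc3h1, B cell markers and other 3′ UTR binding proteins, each close to 0 in at least 1 setting. No paired analysis was possible because each group has 1 library. Depth limits Zc3h12a most, with 46 and 38 counts.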

Other observations

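The TATTTAT heptamer was also counted in the annotated 3′ UTRs of 3275 (91.8%) of the 3566 genes averaging at least 50 CPM. The shortest 3′ UTR had 0 bases in the transcript used, and such genes count as without the heptamer, in the shortest group below. The median log2 fold (IL-33 over PBS) stood at -0.14 for the 999 genes that held it and -0.07 for the 2276 that did not. Genes with the heptamer have longer 3′ UTRs, and the medians were therefore also taken in 5 groups of equal number by 3′ UTR length. In the group of 375 to 879 bases they were -0.13 with the heptamer (103 genes) and -0.12 without (552 genes). In the third group (880 to 1550 bases) they were -0.22 with the heptamer (184 genes) and -0.08 without (471 genes). In the fourth group they were -0.15 and -0.11. In the longest and shortest groups the order was the opposite, at -0.13 with and -0.16 without in the longest, and in the shortest 0.10 for 33 genes with it and 0.06 for 622 without. Genes are not independent replicates and the libraries are 2, so these are descriptions with no test.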
